A study of Homo sapiens with 40 samples.

Results

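The mRNAs of 9 chemokines were followed across the RNA-seq libraries: CXCL1, CXCL2, CXCL3, CXCL5, CXCL6 and CXCL8, CXCL10, CXCL16 and CCL20. They are 9 of the 60708 genes in the count tables and were picked by name from the chemokine ligands with earlier results of these data known. Their levels, fold-changes and numbers of calls are therefore a description, and no p-value is given for them. The series holds 24 RNA-seq libraries in 8 groups of 3, numbered as biological replicates 1 to 3, and 16 ATAC-seq samples that were not analysed here.

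MI-spheres were grown from MCF-10A, an immortalized, non-malignant human breast epithelial line. MII-spheres were grown from an MCF-10A derivative transformed with oncogenic HRAS. Both were cultured in 3D in ultra-low attachment plates and either left unstimulated (MI Ctrl, MII Ctrl) or stimulated with TGFβ1 at 2.5 ng/ml for 16 h (MI TGFβ, MII TGFβ). MDA-MB-231, a triple-negative breast cancer line, was grown as a monolayer in DMEM with serum, without added TGFβ in its 4 groups: untreated parental cells (WT), cells with CRISPR/Cas9 knockout of SNAI2, the gene of the transcription factor SLUG (SLUG KO), cells given a scrambled control siRNA (Csi), and cells given siRNAs against SMAD2, SMAD3 and SMAD4 (siSMAD2/3/4), the signal transducers of TGFβ. The SLUG KO cells came from single-cell colonies, so clonal selection and loss of SLUG cannot be told apart. The siRNA libraries carry a different batch label from the other 18 libraries, so levels set across these batches have no test.

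Chemokines are small secreted proteins that attract leukocytes through G protein-coupled receptors. CXCL1, CXCL2, CXCL3, CXCL5, CXCL6 and CXCL8 (interleukin-8) attract neutrophils through CXCR2, and CXCL6 and CXCL8 also act on CXCR1. CXCL10 is an interferon-induced ligand of CXCR3, CXCL16 is made as a membrane-anchored ligand of CXCR6 that proteases can shed, and CCL20 attracts cells bearing CCR6. In epithelial cells, NF-κB downstream of interleukin-1, TNF or Toll-like receptors is a main inducer of most of these genes, and many of their short-lived transcripts carry AU-rich elements in the 3′ untranslated region.

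The letters that these genes share in front of their start sites are shown first, because 7 of the 8 members with an entry in the RefSeq promoter table (build GRCh38.p14) hold a κB consensus in the 250 bases before the start, and 7 hold the 9-base core GGAATTTCC, which overlaps it. Among all 35116 promoter windows of that length, 9.96% held the κB consensus and 0.413% held GGAATTTCC, on either strand. The windows below give the last 120 bases before the RefSeq start of 5 members, 5′ to 3′ on the gene's own strand, with the κB match in capitals. They lie at chr4:73869273-73869392 (+ strand) for CXCL1, chr4:74099196-74099315 (− strand) for CXCL2, chr4:73998678-73998797 (− strand) for CXCL5, chr4:73740449-73740568 (+ strand) for CXCL8 and chr2:227813722-227813841 (+ strand) for CCL20.
CXCL1: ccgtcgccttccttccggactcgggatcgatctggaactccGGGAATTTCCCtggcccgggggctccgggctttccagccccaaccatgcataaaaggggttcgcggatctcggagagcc
CXCL2: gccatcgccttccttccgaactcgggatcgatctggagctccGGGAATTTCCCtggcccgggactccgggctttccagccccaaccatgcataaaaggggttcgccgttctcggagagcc
CXCL5: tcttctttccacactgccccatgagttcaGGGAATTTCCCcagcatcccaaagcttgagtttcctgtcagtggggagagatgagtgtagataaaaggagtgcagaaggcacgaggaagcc
CXCL8: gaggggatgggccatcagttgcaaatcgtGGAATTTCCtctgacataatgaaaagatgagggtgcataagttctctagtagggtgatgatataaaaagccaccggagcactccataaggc
CCL20: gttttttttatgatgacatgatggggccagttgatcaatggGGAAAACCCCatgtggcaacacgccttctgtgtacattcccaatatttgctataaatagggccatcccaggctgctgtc

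The capitals began 79 bases before the start in CXCL1 and CCL20, 78 bases before it in CXCL2 and 91 bases before it in CXCL5 and CXCL8. In CCL20 the match was on the opposite strand, and CXCL8 matched the 9-base core but not the κB consensus. The CXCL1 and CXCL2 windows were identical at 93.4% of aligned positions, and the windows of CXCL3 and CXCL6, not shown, were identical to CXCL1 at 90.8% and to CXCL5 at 90.9%. CXCL2 and CXCL3 were identical at 88.4%, and the other pairs of members at 40.8% to 56.1%. Near-identical windows went with unlike expression in the siRNA libraries, where CXCL5 was read at 8.71 to 11.85 CPM and CXCL6 at 0. In the other 18 libraries CXCL5 had at most 3 fragments a library, and CXCL6 had 6 fragments in all 24 libraries. Batch, transfection and the source of the cells cannot be told apart in the siRNA libraries. CXCL10 held κB consensus matches further out, beginning 177 and 122 bases before the start, and was the only member with the interferon response element (GAAA, NN and GAAA in a row), which 3.02% of all windows held. The AP-1 site TGACTCA was found in CXCL8 alone (4.2% of all windows), TATAAA on the gene's strand in CXCL8 and CCL20 (6.8%), and the Smad box CAGAC in CXCL2, CXCL5 and CXCL10 (38%). A match is a match of letters, and binding was not measured.

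The 3′ untranslated regions of the GENCODE canonical transcripts were counted for ATTTA, the core pentamer of AU-rich elements. CXCL2 held 10 pentamers, and 0.0993% of 3′ untranslated regions within 20% of its length held as many. CXCL3 held 7 (0.925%), CXCL8 held 9 (2.48%), CXCL1 held 6 (3.95%), CXCL5 held 11 (4.79%), CCL20 held 3 (10.8%) and CXCL6 held 6 (11.2%). CXCL10 and CXCL16 held 1 each, a number reached by 69.3% and 74.1% of regions of like length.

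Library totals ranged from 14124688 to 38406952 fragments assigned to genes. Levels are given in CPM, the fragments of a gene scaled by the TMM-adjusted library total, and 3 fragments over a group of 3 libraries correspond to 0.0287 to 0.0645 CPM. Log2 CPM of replicates correlated across genes at r of 0.994 or more, except that WT replicate 2 stood apart from WT replicates 1 and 3 (r = 0.959 and 0.955), so results on WT are given with and without it. SNAI2 mRNA was higher in the libraries labelled SLUG KO (61.8 ± 3.6 CPM, SD, n = 3) than in WT (28.2 ± 6.6), with a log2 fold-change of 1.10 ± 0.21 (SE, adjusted p = 0.04 by edgeR's quasi-likelihood test, as for all p-values here). That call was lost on leaving out any 1 of the 6 libraries but WT replicate 2, with log2 fold-changes of 1.10 to 1.25. A small deletion or insertion in an exon need not lower the transcript, so the mRNA does not check this label. The other targets moved with their labels: HRAS was 40.7 ± 1.0 CPM in MI Ctrl and 220 ± 4.1 in MII Ctrl, and siSMAD2/3/4 lowered SMAD2 by a log2 fold-change of -1.92, SMAD4 by -1.72 and SMAD3 by -0.69. The 7 epithelial and mesenchymal markers all had counts in the spheres, whereas KRT5 was at 0 in WT and SLUG KO. PTPRC, which marks leukocytes, averaged at most 0.40 CPM, while the 9 leukocyte markers summed to 103.3 to 111.6 CPM in MI-spheres and 217 to 236 in MII-spheres, nearly all CD14 and, in MII-spheres, LYZ (35.7 ± 0.80 CPM in MII Ctrl). Their part in the chemokine levels was not tested. In bulk RNA, fewer producing cells and less RNA per cell cannot be told apart.

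CXCL8 had the widest range of the 9 mRNAs among those read in every library. It was read at 127.6, 132.7 and 137.8 CPM in MI Ctrl and 37.1, 36.1 and 45.4 in MI TGFβ. In MII-spheres it was 7.94, 8.99 and 7.49 CPM in Ctrl and 18.3, 18.2 and 14.4 with TGFβ. The MDA-MB-231 libraries gave 10.96, 3.35 and 13.6 CPM in WT, 23.0, 20.9 and 33.6 in SLUG KO, 13.5, 13.1 and 13.6 in Csi and 10.8, 9.47 and 9.93 in siSMAD2/3/4. All 3 MI Ctrl libraries were above all other libraries, and of the 7 neighbouring pairs in the order of group means, 5 did not overlap. The bottom 3 groups, siSMAD2/3/4, WT and MII Ctrl, overlapped from one to the next.

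CXCL1, a neutrophil attractant also known as GROα, separated the MI-spheres from every other group. It was read at 43.0, 46.5 and 41.6 CPM in MI Ctrl and 38.8, 40.3 and 46.6 in MI TGFβ, and these groups overlapped. With raw library totals in place of TMM they did not, at 43.5, 46.6 and 40.98 CPM in MI Ctrl and 33.5, 35.9 and 38.4 in MI TGFβ. MII Ctrl held 3.77, 4.18 and 4.11 CPM and MII TGFβ 10.3, 8.995 and 10.3, without overlap between them. In MDA-MB-231 cells its 4 group means lay between 1.92 ± 0.61 CPM (WT) and 4.17 ± 0.54 CPM (siSMAD2/3/4). Of its neighbouring pairs, 3 of 7 did not overlap.

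CXCL2 was read at 13.7, 15.5 and 15.2 CPM in MI Ctrl and at 2.85, 4.79 and 3.70 in MI TGFβ, a gap without overlap. Its level in MII-spheres was 2.05, 2.17 and 2.39 CPM in Ctrl and 1.62, 2.20 and 2.51 with TGFβ, where the groups overlapped. Csi ranked next to MI Ctrl with 6.37, 5.87 and 6.32 CPM. CXCL3, at a lower level, was 4.36, 4.04 and 4.05 CPM in MI Ctrl and between 0.604 and 1.17 CPM as a mean in each of the other 7 groups, whose neighbours in the order of means all overlapped.

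CCL20 was read almost only in unstimulated MI-spheres, at 3.66, 3.75 and 3.69 CPM (95, 78 and 71 fragments). MI TGFβ held 4, 2 and 4 fragments, and the group means elsewhere were 0.225 CPM or less. CXCL16 was the member that MI- and MII-spheres shared most evenly: 21.3, 21.7 and 20.5 CPM in MI Ctrl, 13.2, 12.04 and 14.1 in MI TGFβ, 16.9, 19.3 and 18.5 in MII Ctrl and 17.9, 18.9 and 18.9 in MII TGFβ. All 12 sphere libraries were above all 12 MDA-MB-231 libraries, which ranged from 1.61 to 7.27 CPM. CXCL10 was low everywhere, with group means from 0.174 ± 0.094 CPM (MII Ctrl) to 1.28 ± 0.26 CPM (SLUG KO). Its 7 neighbouring pairs all overlapped, whereas the more distant MI Ctrl (0.467 to 1.27 CPM) and MII Ctrl (0.0661 to 0.234 CPM) did not.

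CXCL5 was confined to the siRNA experiment in these libraries apart from at most 3 fragments a library. Csi held 8.71, 10.09 and 8.92 CPM (260, 383 and 329 fragments) and siSMAD2/3/4 held 11.2, 9.21 and 11.9 CPM. WT held 0, 3 and 0 fragments, MI Ctrl held 1, 2 and 1, and MI TGFβ, both MII groups and SLUG KO held none. Other genes also separated the siRNA libraries from WT and SLUG KO, which carry the same cell line label: counted after the values were seen, 28 genes outside the sex chromosomes (24 autosomal and 4 mitochondrial) were at 1 CPM or more in all 6 siRNA libraries and under 0.2 CPM in all 6 WT and SLUG KO libraries, and 58 showed the reverse. CXCL5 ranked 2 by mean level among the 28, after ALDH1A1 (65.4 CPM). Batch, transfection and the source of the cells cannot be told apart, so the CXCL5 levels of these experiments may not be levels of the same cells. CXCL6 was near 0 throughout, with 1 fragment in MI TGFβ, 1 in MII Ctrl and 4 in MII TGFβ.

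To compare genes with each other, levels were set per kilobase of exon (RPKM). Summed over the 9 mRNAs, MI Ctrl held 114 ± 2.9 RPKM (SD, n = 3), MI TGFβ 56.7 ± 5.4, MII Ctrl 15.3 ± 0.97 and MII TGFβ 23.7 ± 0.22. The MDA-MB-231 sums were 9.41 ± 3.2 RPKM in WT, 20.3 ± 3.1 in SLUG KO, 20.1 ± 0.35 in Csi and 18.2 ± 1.3 in siSMAD2/3/4. The leading member changed with the group. CXCL8 made up 51.8 ± 1.6% of the sum in MI Ctrl and CXCL1 28.04%, while in MI TGFβ CXCL1 made up 54.3 ± 0.23% and CXCL8 31.1%. CXCL16 led in MII Ctrl with 42.6 ± 0.20%, and in MII TGFβ CXCL8 (31.97%), CXCL1 (30.6%) and CXCL16 (28.04%) were close. CXCL8 had the highest mean share in all 4 MDA-MB-231 groups, from 24.8% in siSMAD2/3/4 to 56.2 ± 6.0% in SLUG KO. It did not lead in every library: in WT replicate 2 CXCL2 (1.78 RPKM) was above CXCL8 (1.498 RPKM), and in siSMAD2/3/4 replicate 3 CXCL5 (4.86 RPKM) was above CXCL8 (4.44 RPKM). Without WT replicate 2, the WT sum was 11.2 ± 1.0 RPKM (SD, n = 2) and the CXCL8 share 48.7 ± 2.9%, against 41.1 ± 13% with it.

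How TGFβ moved these mRNAs in non-transformed spheres was asked by comparing MI TGFβ with MI Ctrl. CCL20, CXCL3, CXCL2 and CXCL8 were lower with TGFβ by 24.2-fold, 4.74-fold, 4.07-fold and 3.55-fold, CXCL16 was 1.71-fold lower, and CXCL1 stayed within the spread of its libraries. The log2 fold-changes were -4.60 ± 0.33 (SE) for CCL20, -2.24 ± 0.22 for CXCL3, -2.03 ± 0.14 for CXCL2, -1.83 ± 0.069 for CXCL8 and -0.77 ± 0.086 for CXCL16. In each the MI TGFβ libraries all lay under the MI Ctrl libraries, in a comparison where 56.0% of all genes were called. Lack of overlap is a description, here and in the other comparisons. Its share over all genes is given only for SLUG KO against WT. CXCL1 stood at -0.14 ± 0.072. CXCL10 had a log2 fold-change of -1.18 ± 0.45 from 57 and 25 fragments, its groups overlapped, and leaving out MI Ctrl replicate 1 gave -0.68 without a call.

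Of the 9 genes, 7 passed the filter on low counts, and 6 of them were called lower and 0 higher at an adjusted p under 0.05, beside 27.4% lower and 28.7% higher among all 16863 genes tested. CXCL5 and CXCL6 were not tested, and CCL20 passed the filter through its level in MI Ctrl. The CXCL10 call was also lost with DESeq2 (-1.12) and without MI Ctrl replicate 2 (-1.25), MI TGFβ replicate 1 (-1.15) or MI TGFβ replicate 3 (-0.91). CXCL1 was called lower without MI TGFβ replicate 3 (-0.20) and with a filter of at least 10 counts in every library (-0.18).

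The pathway around these genes was followed with lists of named genes. The lists were chosen with earlier results of these data known, and mainly their called genes with the largest changes are named. The p-values of these genes, here and below, were adjusted over all genes tested. They are a description and give no independent support. Counts of calls on these lists are to be read beside the shares of all genes called in the same comparison. Among 12 NF-κB feedback genes, which are themselves induced by NF-κB or restrain it, 11 fell and 0 rose in MI-spheres with TGFβ, with a median log2 fold-change of -0.88 against -0.02 over all genes. BIRC3, an inhibitor of apoptosis, fell from 86.3 ± 3.6 to 15.8 ± 1.5 CPM (log2 fold-change -2.53 ± 0.072, adjusted p = 4.1e-17). TNFAIP3, which encodes the deubiquitinase A20, fell from 56.9 ± 2.1 to 12.3 ± 1.3 CPM (-2.29 ± 0.082, adjusted p = 2.3e-15), and NFKBIZ, which encodes an atypical IκB, from 141 ± 6.3 to 40.6 ± 1.3 CPM (-1.88 ± 0.059, adjusted p = 2.8e-16). ZC3H12A, an mRNA-degrading nuclease, fell by 1.67 on the log2 scale. Of 19 NF-κB factors and kinases, 11 fell and 2 rose (median log2 fold-change -0.22), among them IRAK2 (-1.53), NFKB2 (-1.39), IKBKE (-1.33) and RELB (-0.89).

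Of 16 cytokines listed as inducers, here called inducing cytokines, 12 were tested, 8 fell and 2 rose (median log2 fold-change -1.31). The list also holds cytokines such as CSF3, IL24 and LIF, and whether its members induced the chemokines was not tested. CSF3, a neutrophil growth factor, fell from 4.54 ± 0.16 to 0.838 ± 0.064 CPM (log2 fold-change -2.50 ± 0.21, adjusted p = 3.3e-09), and IL24, TNF and IL36G fell to 0.131 CPM or less. IL1A, the interleukin-1α gene, rose from 16.6 ± 0.31 to 28.6 ± 3.1 CPM (0.70 on the log2 scale, adjusted p = 3.5e-07). Among receptors of the inducers, 4 of 14 rose and 5 fell, near the shares of all genes (28.7% higher and 27.4% lower). IL1RAP, a co-receptor of interleukin-1, stood at 0.72 ± 0.080. Of 22 interferon response genes tested, 11 fell and 1 rose, including IRF1 (log2 fold-change -1.34, adjusted p = 1.5e-13) and MX2 (-1.39). ZFP36, which promotes decay of AU-rich mRNAs, fell from 80.7 ± 2.1 to 34.7 ± 4.5 CPM (adjusted p = 1.3e-11), in a list of 9 decay factors of which 4 fell and 2 rose. Of 7 genes of chemokine processing that were tested, 5 rose and 0 fell, with PADI4, an enzyme that citrullinates proteins, going from 0.759 ± 0.20 to 12.02 ± 0.10 CPM (log2 fold-change 3.92 ± 0.18). Of 3 other chemokine ligands tested, CXCL11 (log2 fold-change -1.61, adjusted p = 0.0081), an interferon-induced ligand of CXCR3, and CXCL17 (-1.55, adjusted p = 1.1e-09), a mucosal chemokine, fell, and the CXCL11 call was lost with DESeq2 (-1.62) and without MI Ctrl replicate 2 (-1.47). The 7 epithelial and mesenchymal markers summed to 2484 to 2553 CPM in MI Ctrl and 4160 to 4526 in MI TGFβ, and their part in these changes was not tested.

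The same question in HRAS-transformed spheres compared MII TGFβ with MII Ctrl. CXCL1 was 2.38-fold and CXCL8 2.01-fold higher with TGFβ, with log2 fold-changes of 1.25 ± 0.14 and 1.01 ± 0.11 and no overlap between libraries. CXCL2 (-0.10 ± 0.25), CXCL3 (-0.37 ± 0.38) and CXCL16 (-0.02 ± 0.085) overlapped between the groups, with 95% intervals of -0.58 to 0.39, -1.11 to 0.38 and -0.19 to 0.15 for their log2 fold-changes. Of the 5 members tested, 2 were called higher and 0 lower, beside 29.9% higher and 27.6% lower among 16396 genes. CCL20 and CXCL10, at 9 to 12 fragments a group, and CXCL5 and CXCL6 did not pass the filter.

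**Figure D1:**
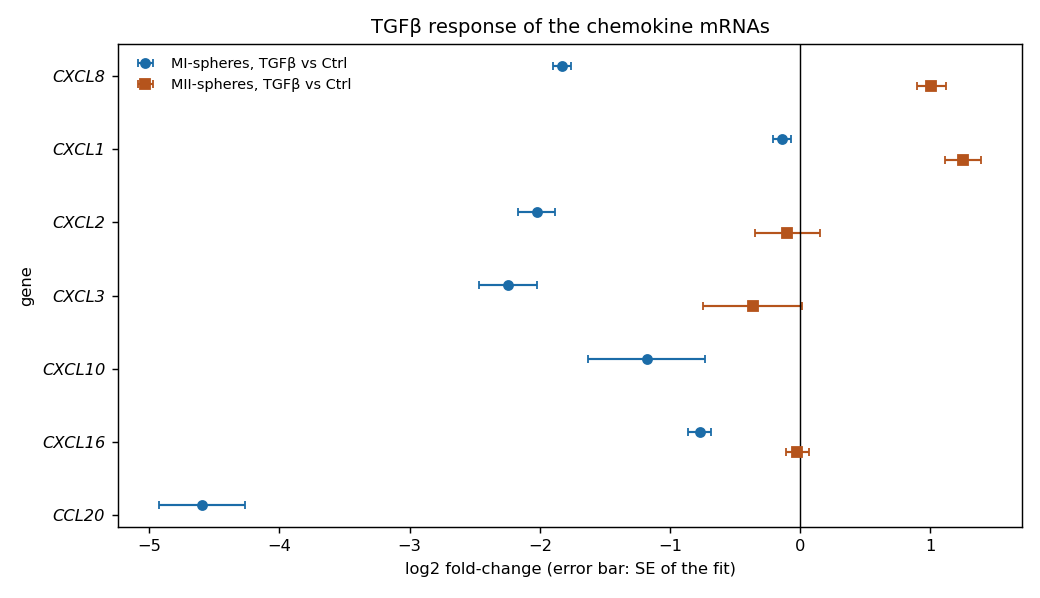
Log2 fold-change (TGFβ against Ctrl) with its SE for the 7 chemokine mRNAs tested in MI-spheres (circles) and the 5 tested in MII-spheres (squares). The MI points for CXCL8, CXCL2, CXCL3 and CCL20 lie between -1.83 and -4.60, whereas the MII points for CXCL8 and CXCL1 lie at 1.01 and 1.25.

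Of the 12 NF-κB feedback genes, 4 rose and 7 fell in MII-spheres (median log2 fold-change -0.36), with ZC3H12A at -1.26 ± 0.083 (adjusted p = 8.6e-19), NFKBID at -0.81, TRAF1 at -0.65 and NFKBIZ at -0.56. The TRAF1 call was lost with DESeq2 (-0.62) and without MII TGFβ replicate 1 (-0.52). BIRC3 rose from 25.0 ± 1.8 CPM in MII Ctrl to 34.0 ± 2.2 in MII TGFβ (log2 fold-change 0.41, adjusted p = 2.3e-06). Of 19 NF-κB factors and kinases, 4 rose and 8 fell. Of 7 inducing cytokines tested, 3 rose and 0 fell. IL1A rose from 1.59 ± 0.24 to 5.64 ± 0.60 CPM (log2 fold-change 1.77 ± 0.20, adjusted p = 1.1e-10), TNFSF10 rose by 0.37 and LIF by 0.25. Among 13 receptors of the inducers, 8 rose and 0 fell, led by IL1RAP (log2 fold-change 0.72, adjusted p = 8e-11). ZFP36 fell from 70.3 ± 1.7 to 23.1 ± 2.2 CPM (log2 fold-change -1.64 ± 0.065, adjusted p = 6.2e-28), and 6 of the 9 decay factors fell while 2 rose. Interferon response genes were split, with 7 higher and 7 lower of 21, near the shares of all genes (29.9% higher and 27.6% lower). MMP1, a collagenase, rose from 0.199 ± 0.20 to 3.73 ± 1.0 CPM, and 4 of 5 processing genes tested rose.

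**Figure D2:**
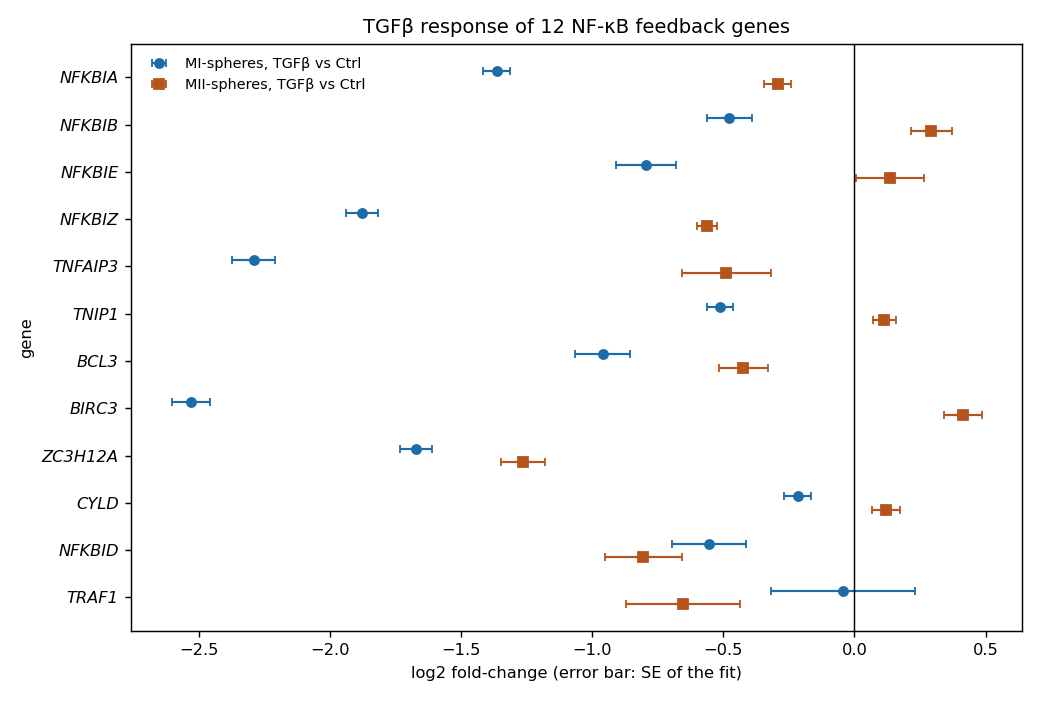
Log2 fold-change (TGFβ against Ctrl) with its SE for the 12 NF-κB feedback genes in MI-spheres (circles) and MII-spheres (squares). BIRC3, TNFAIP3 and NFKBIZ lie at -2.53, -2.29 and -1.88 in MI-spheres, and 4 of the 12 genes rose in MII-spheres.

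The difference between the responses was fitted as an interaction over the 12 sphere libraries, as the log2 fold-change in MII-spheres minus that in MI-spheres. CCL20 differed by 5.20 ± 0.85, CXCL8 by 2.84 ± 0.13, CXCL2 by 1.94 ± 0.27, CXCL3 by 1.89 ± 0.44, CXCL1 by 1.40 ± 0.14 and CXCL16 by 0.76 ± 0.12. For CXCL8 the responses had opposite directions, lower with TGFβ in MI-spheres and higher in MII-spheres. CXCL1 was higher in MII-spheres and overlapped in MI-spheres, and CXCL2, CXCL3 and CXCL16 were lower in MI-spheres and overlapped in MII-spheres. CCL20 in MII-spheres rested on 9 fragments without and 10 with TGFβ, and it passed the filter through MI Ctrl. All 6 members tested were called higher and 0 lower, beside 12.6% higher and 9.75% lower among 18591 genes.

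Of the 12 NF-κB feedback genes, 10 had a higher response in MII-spheres than in MI-spheres and 0 a lower one, led by BIRC3 (2.95 ± 0.10, adjusted p = 3.5e-23), TNFAIP3 (1.82 ± 0.18, adjusted p = 2.2e-10), NFKBIZ (1.33 ± 0.070, adjusted p = 8.9e-18) and NFKBIA (1.08 ± 0.071, adjusted p = 3.6e-15). Of the 19 NF-κB factors and kinases, 7 were higher in this sense and 1 lower, with IKBKE at 1.38, NFKB2 at 1.10 and RELB at 0.95. Among 11 inducing cytokines, 4 were higher (IL32 2.78, TNFSF10 1.67, LIF 1.25 and IL1A 1.07) and 1 lower, and of 22 interferon response genes 10 were higher and 0 lower. Of the 9 decay factors 0 were higher and 2 lower, ZFP36 (-0.33) and ZFP36L1 (-0.56), and ZFP36 lost its call without MI TGFβ replicate 2 (-0.25) or MII TGFβ replicate 1 (-0.29). The median over all genes was -0.0006, against 0.71 for the feedback genes and 1.91 for the 6 members.

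Whether the HRAS-transformed line had other basal levels was asked by comparing MII Ctrl with MI Ctrl. The comparison shares its control libraries with the TGFβ comparisons. MII is a derived line, so HRAS and other differences between the lines cannot be told apart. CCL20 was 24.8-fold, CXCL8 15.9-fold, CXCL1 10.7-fold, CXCL2 6.61-fold and CXCL3 4.54-fold lower in MII-spheres, and CXCL16 1.14-fold lower. The log2 fold-changes were -4.63 ± 0.36, -3.99 ± 0.065, -3.42 ± 0.089, -2.72 ± 0.13, -2.18 ± 0.23 and -0.19 ± 0.076. CCL20 passed the low-count filter through its level in MI Ctrl (95, 78 and 71 fragments), as MII Ctrl held 1, 4 and 4 fragments. All 6 members tested were called lower and 0 higher, beside 32.5% lower and 31.7% higher among 17862 genes. The small CXCL16 difference lost its call with DESeq2 (-0.22) and without MI Ctrl replicate 1, MI Ctrl replicate 2 or MII Ctrl replicate 1. CXCL10, with 57 fragments in MI Ctrl and 12 in MII Ctrl, did not pass the filter. It was called lower with DESeq2 (-2.19) and without a filter on low counts (-2.16).

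Most of the listed cytokines were lower too: 9 of 11 inducing cytokines were lower in MII Ctrl and 2 higher (median log2 fold-change -3.19). IL33, an epithelial alarmin, was 15.9 ± 0.42 CPM in MI Ctrl and 0.115 ± 0.14 in MII Ctrl, CSF3 was 4.54 ± 0.16 and 0.0111 ± 0.019 CPM, and IL24 and IL36G were read at 0.0221 and 0.0223 CPM in MII Ctrl. Of the 12 feedback genes, 8 were lower and 3 higher, with TNFAIP3 at -3.35 ± 0.081 (adjusted p = 2.3e-39), NFKBIA, the gene of IκBα, at -2.22 ± 0.039 and BIRC3 at -1.78 ± 0.059. NFKBIZ was higher, at 141 ± 6.3 CPM in MI Ctrl and 293 ± 5.6 in MII Ctrl. Of 22 interferon response genes, 15 were lower and 4 higher, led by IFIT1 (-2.22) and MX2 (-2.17). TLR4, the receptor of lipopolysaccharide, was higher by 3.50 ± 0.065 on the log2 scale.

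After TGFβ, MII-spheres still held less CXCL1 (4.03-fold), CXCL8 (2.21-fold) and CXCL2 (1.71-fold) than MI-spheres, and more CXCL16 (1.49-fold), all without overlap. The log2 fold-changes of MII TGFβ against MI TGFβ were -2.01 ± 0.093, -1.14 ± 0.096, -0.78 ± 0.24 and 0.58 ± 0.096, and CXCL3 stood at -0.29 ± 0.39. Of 5 members tested, 1 was called higher and 3 lower, beside 31.1% higher and 31.6% lower among 15878 genes. Of the feedback genes, 6 were higher and 5 lower, with NFKBIZ at 2.40 ± 0.058, BIRC3 at 1.18 ± 0.086, TNFAIP3 at -1.52 ± 0.15 and NFKBIA at -1.13 ± 0.056. IL1A stood at -2.27 ± 0.11 (adjusted p = 2.2e-14).

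Cells labelled SLUG KO were compared with WT to ask what went with the loss of SLUG. CXCL8 was 2.73-fold, CXCL16 2.38-fold and CXCL2 1.53-fold higher in SLUG KO, and all 3 SLUG KO libraries lay above all 3 WT libraries. None of the members passed the test. WT replicate 2 held 3.35 CPM of CXCL8, against 10.96 and 13.6 in the other WT libraries. The log2 fold-changes were 1.45 ± 0.48 for CXCL8, 1.25 ± 0.34 for CXCL16, 0.62 ± 0.25 for CXCL2, 0.34 ± 0.30 for CXCL1, 0.51 ± 0.51 for CXCL3 and 0.77 ± 0.68 for CXCL10. Without WT replicate 2 they were 1.06 ± 0.17, 1.66 ± 0.21, 0.56 ± 0.22, 0.14 ± 0.24, 0.13 ± 0.39 and 0.27 ± 0.34, and CXCL8 and CXCL16 were then called.

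Of 6 members tested, 0 were called by edgeR with 3 WT libraries (3 at an unadjusted p under 0.05, and 2 by DESeq2), beside 1.45% higher and 1.89% lower among 17428 genes, and 2 without WT replicate 2, when 31.2% of all genes were called. CXCL2, CXCL8 and CXCL16 lay higher without overlap, as did 16.5% of all genes. Of the pathway lists, 4 of 11 inducing cytokines rose and 0 fell. IL6 rose from 8.02 ± 2.0 to 36.0 ± 6.5 CPM (log2 fold-change 2.14 ± 0.26, adjusted p = 0.0075), IL24 from 1.497 ± 0.80 to 22.1 ± 0.60 CPM (adjusted p = 0.0033), CSF2 from 4.68 ± 0.89 to 11.2 ± 0.47 CPM (adjusted p = 0.029) and IL18 from 14.5 ± 2.9 to 30.2 ± 2.1 CPM (adjusted p = 0.04). IL1RN, the interleukin-1 receptor antagonist, rose by a log2 fold-change of 3.63 ± 0.27 (adjusted p = 0.0018), and NFKBIA by 1.07 ± 0.16 (adjusted p = 0.015). The calls of IL6, IL24 and IL1RN held without any 1 library. Those of CSF2 (1.13 to 1.43) and IL18 (1.00 to 1.19) were lost on leaving out any library but WT replicate 2, and that of NFKBIA (1.03 to 1.15) on leaving out WT replicate 1 or any SLUG KO replicate. Over all pathway lists 11 genes were called, and 62 without WT replicate 2, 5 without WT replicate 1, 6 without WT replicate 3 and 4 without any 1 SLUG KO replicate.

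The siRNA libraries compared cells depleted of SMAD2, SMAD3 and SMAD4 with Csi. CXCL8 was 1.33-fold and CXCL2 1.31-fold lower in siSMAD2/3/4, with log2 fold-changes of -0.41 ± 0.087 and -0.39 ± 0.12 and no overlap between libraries. CXCL1 (-0.00 ± 0.14), CXCL3 (-0.17 ± 0.31), CXCL10 (-0.03 ± 0.47) and CXCL16 (0.06 ± 0.13) overlapped, with intervals of -0.28 to 0.28, -0.77 to 0.43, -0.95 to 0.88 and -0.19 to 0.31. CXCL5, which only these libraries held at more than 3 fragments, stood at 0.21 ± 0.10. Of 7 members tested, 0 were called higher and 2 lower, beside 16.3% higher and 19.7% lower among 17696 genes. Per the file names, 2 of the 3 siSMAD2/3/4 libraries came from another flow cell, and with flow cell as a term or without siSMAD2/3/4 replicate 2 the CXCL2 call was lost (-0.31 in both) while CXCL5 was called higher (0.36 and 0.31).

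Of the 19 NF-κB factors and kinases, 7 fell and 1 rose with siSMAD2/3/4, among them RELB (log2 fold-change -0.44 ± 0.073, adjusted p = 1.1e-05), TRAF2 (-0.37), NFKB2 (-0.35) and CHUK (-0.34), and of the 12 feedback genes 6 fell and 2 rose. Of 23 interferon response genes, 11 rose and 3 fell, led by IFIT1, from 89.8 ± 5.1 to 153 ± 7.3 CPM. CX3CL1, a membrane-anchored chemokine, rose from 34.7 ± 0.34 to 51.7 ± 2.0 CPM (log2 fold-change 0.57 ± 0.054, adjusted p = 5e-10), and CCL2, a monocyte attractant, from 16.0 ± 1.2 to 21.0 ± 1.0 CPM (0.39 ± 0.077, adjusted p = 0.00015).

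**Figure D3:**
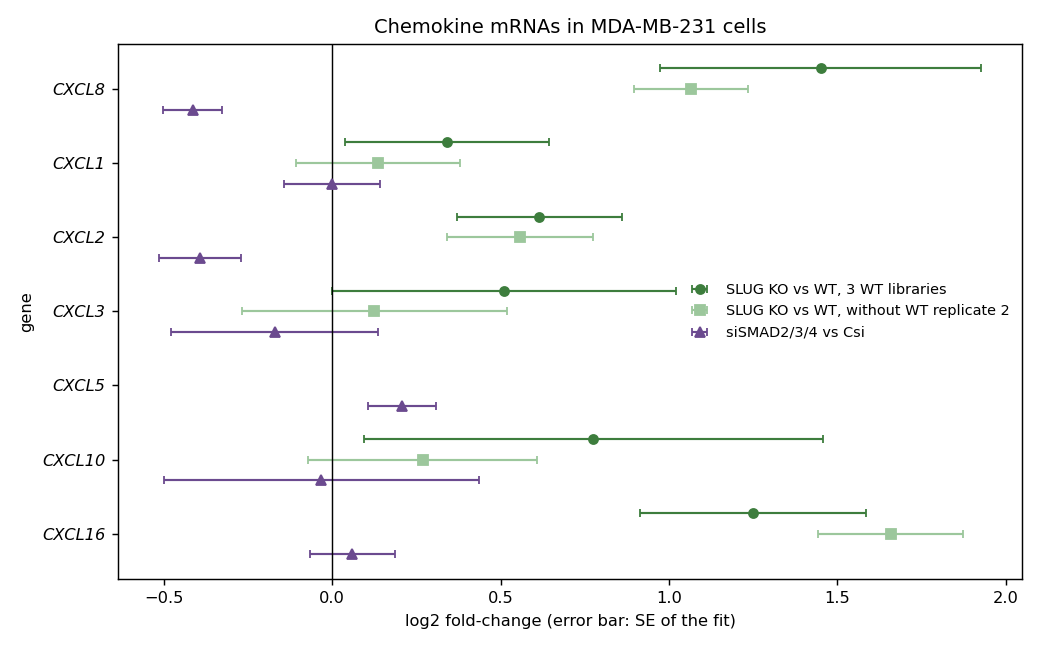
Log2 fold-change with its SE for the chemokine mRNAs in MDA-MB-231 cells: SLUG KO against WT with all 3 WT libraries (circles) and without WT replicate 2 (squares), and siSMAD2/3/4 against Csi (triangles). CXCL8 moves from 1.45 to 1.06 and CXCL16 from 1.25 to 1.66 when WT replicate 2 is left out, and the siSMAD2/3/4 points lie between -0.41 and 0.21.

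The cells held little RNA of the receptors that read these ligands. CXCR1 and CXCR2, for the neutrophil attractants, averaged at most 0.0666 and 0.0448 CPM in any group, and CXCR3, CCR6 and ACKR1, a scavenger of inflammatory chemokines, at most 0.125, 0.0302 and 0.0597 CPM. CXCR6, the CXCL16 receptor, was read in every group, from 0.736 ± 0.12 CPM in Csi to 2.29 ± 0.064 in MII Ctrl, and fell in MII-spheres with TGFβ (log2 fold-change -0.98 ± 0.28, adjusted p = 0.0021). ACKR3, a scavenger of CXCL12, rose from 1.59 ± 0.22 to 6.03 ± 0.21 CPM in SLUG KO (1.89 ± 0.23, adjusted p = 0.0074) and from 4.64 ± 0.52 to 7.35 ± 0.59 CPM with siSMAD2/3/4 (0.65 ± 0.12, adjusted p = 5.8e-05). CXCR4, the signalling receptor of CXCL12, fell in the same comparisons (-1.99 ± 0.32, adjusted p = 0.02, and -0.33 ± 0.099, adjusted p = 0.0079). In SLUG KO, the ACKR3 call was lost without any 1 SLUG KO replicate (1.89 to 1.93), and the CXCR4 call without any 1 library but WT replicate 2 (-1.70 to -2.03). With siSMAD2/3/4, the CXCR4 call was lost without Csi replicate 3 (-0.27) and with flow cell as a term (-0.35).

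Likeness of pattern was described by Pearson's r of log2 CPM over the 8 group means, points that share cell lines and batches. CXCL3 and CCL20 (0.93), CXCL2 and CXCL3 (0.91) and CXCL8 and CCL20 (0.87) were the most alike members, and CXCL5 ranged from -0.43 to 0.26 with the others. CCL20 averaged 3.70 CPM in MI Ctrl and 0.225 CPM or less elsewhere, so its correlations rest mainly on the MI Ctrl mean. Among all 22191 genes that passed the low-count filter, the most alike was LRG1 for CXCL1 (0.99), followed by IFNGR1 (0.99), which encodes an interferon-γ receptor chain. IL36G led for CCL20 (0.99) with VNN3P and VNN2, TNFSF10 for CXCL2 (0.96), EXOC3L4 for CXCL3 (0.97), COG3 and NFE2L2 for CXCL16 (0.99 each) and HSD11B1-AS1 for CXCL10 (0.98). For CXCL8 the nearest was the unnamed gene ENSG00000227619 (0.97). For CXCL5 they were the unnamed gene ENSG00000265690 and the mitochondrial tRNA genes MT-TL1 and MT-TI (all 0.998 or more), and MT-TL1 averaged 17.4 CPM in Csi and 0.165 CPM in WT.

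In the genome (GRCh38), 6 of the members lie within one stretch of chromosome 4, chr4:73740541-74099196, in the order CXCL8, CXCL6, CXCL1, CXCL5, CXCL3 and CXCL2. CXCL8, CXCL6 and CXCL1 are on the + strand and the others on the − strand. CXCL8, CXCL1, CXCL3 and CXCL2 each had their highest group mean in MI Ctrl, which CXCL5 and CXCL6 did not share. CXCL6, 20.3 kb from CXCL1, was near 0 where CXCL1 was at 43.7 ± 2.5 CPM. CXCL5, 37.9 kb from CXCL3, was at 0 in MII-spheres. Of the other 12 annotated genes in the stretch, 4 were at 0 in all 24 libraries and the most read, PF4, had 68 fragments. PF4 was read at 0.404 ± 0.053 CPM in Csi and at 0 in WT. CXCL10 lies at chr4:76021118-76023497 (− strand), CXCL16 at chr17:4733533-4739928 (− strand) and CCL20 at chr2:227805739-227817564 (+ strand), a GENCODE span that begins before the RefSeq start used for its promoter window.

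Fragments that fit several genes were dropped by the authors' counting, which lowers some levels. CXCL5 shared 17.3% of its exonic bases with an unnamed gene on the opposite strand, CXCL16 6.16% with MED11 and ZMYND15, and CXCL6 4.61% with PPBPP1, and the other 6 shared none. Of the 50-base stretches of the canonical transcripts, 5.33% of CXCL1, 10.1% of CXCL2 and 5.26% of CXCL3 recurred in the other members of this trio, and no 100-base stretch of any member recurred in another gene. The counting ignored strand, so fragments of a gene and of its antisense partner cannot be told apart.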

How the data were processed

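Total RNA of 24 libraries was sequenced as paired ends from a stranded, ribosome-depleted protocol. The count tables deposited by the authors hold raw fragment counts per GENCODE gene on GRCh38, made by trimming with Trimmomatic, alignment with STAR and counting over exons with featureCounts (Subread 2.0.0), ignoring strand and dropping fragments that mapped to several places or genes. Tools are named from the submitters' processing notes and the file headers. Each table holds 1 library, so replicates were not pooled. The labels call the replicates biological, and where they share a culture p-values measure technical spread.

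Symbols of 60463 of 60708 genes were taken from the GENCODE annotation given for GRCh38. CPM used TMM factors over all 24 libraries, and RPKM divided them by exonic length. Genes passing edgeR's filterByExpr were tested with edgeR's quasi-likelihood test on the groups compared, and p-values were adjusted by the Benjamini-Hochberg method over all genes tested, with calls at an adjusted p under 0.05. The SE of a log2 fold-change was derived from its test, as its absolute value over the square root of the F statistic. Intervals of log2 fold-changes are the estimate ± 1.96 SE. They make no allowance for the few libraries and are approximate. The scripts were tested on simulated data. The work used Python 3.11.15 (NumPy 2.4.6, pandas 2.3.3) and R 4.3.3 (DESeq2 1.42.0, edgeR 4.0.16, limma 3.58.1).

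The 9 members and all gene lists were chosen with earlier results of these data known, so they support no test. Named beside the members were the targeted genes, SMAD7, the receptors of the listed ligands, up to 4 called genes per list and comparison with the largest absolute log2 fold-change, the genes of the chromosome 4 stretch, and the 3 genes most like each member over the 8 group means (log2 of CPM plus 0.5), where Y-linked genes were left out. BIRC3, IL1A and NFKBIZ were also given in comparisons where this rule did not pick them. Alternatives were DESeq2 and its size factors, other filters on low counts, the replicate number as a block, flow cell, wider fits, raw library totals and leaving out each library. Promoter letters came from the RefSeq table of GRCh38.p14, which matched 8 of the 9 members. CXCL16 had no entry. The rule named 1 more gene, which is not reported here.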

Additional observations from a re-analysis of the deposited data

Results flagged for a closer look

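The TGFβ response differed between MII- and MI-spheres, by the interaction term of the edgeR fit, for all 6 chemokine mRNAs tested. All 6 were called higher, beside 12.6% higher and 9.75% lower among 18591 genes. The log2 fold-change in MII-spheres minus that in MI-spheres was 1.40 for CXCL1, 1.94 for CXCL2, 1.89 for CXCL3, 2.84 for CXCL8, 0.76 for CXCL16 and 5.20 for CCL20. CCL20 passed the low-count filter through its level in MI Ctrl and held 9 to 10 fragments in each of the other sphere groups. The genes were chosen with this pattern known, so the values are a description. For this flagging, groups of 3 libraries were taken as too small for a search for single libraries far from the others of their group. WT replicate 2 was seen to stand apart by its correlations across genes (r = 0.959 and 0.955).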

How the results depend on the processing

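The members called kept their number within 1.5 times under every alternative in the TGFβ, MII against MI, interaction and siSMAD2/3/4 comparisons, no called log2 fold-change of a named gene changed its sign, and the mean CPM of each member's highest group stayed within 1 SD with raw library totals. Of 63 group means, raw totals moved 6 by over 1 SD: CXCL8, CXCL1 and CXCL16 in MI TGFβ to 33.8, 35.9 and 11.2 CPM, CXCL1 and CXCL16 in MII Ctrl to 4.31 and 19.6 CPM, and CXCL16 in MII TGFβ to 17.8 CPM. In SLUG KO against WT, 0 members were called, and 2 with DESeq2, 2 without a filter on low counts and 3 in a fit of all 18 libraries of the batch. Leaving out single libraries gave 0 to 2, the highest without WT replicate 2. The pathway genes called there numbered 11, and 21 with DESeq2, 6 with at least 10 counts in every library, 37 in the fit of 18 libraries and 4 to 62 without single libraries, the highest again without WT replicate 2. Over all genes the calls numbered 581, and 1204 with DESeq2, 973 without a filter, 260 with at least 10 counts, 4174 in the fit of 18 libraries and 133 to 5592 without single libraries. These settings also differ in the numbers of genes tested and of libraries, and the cause of the changing counts was not tested. With DESeq2 and without a filter, which test more low genes, the median log2 fold-change of all genes in MII TGFβ against MII Ctrl was -0.24 and -0.25, against -0.02. Depth limits CXCL6, CXCL10 and CCL20 outside MI Ctrl, whose groups held 0 to 88 fragments.

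Libraries with the same replicate number were not treated as paired. Their deviations from the group means correlated at -0.22 to 0.06, with the lowest value in SLUG KO against WT. Such correlations cannot settle whether the cultures were paired. With the replicate block, SLUG KO against WT gave 6 pathway genes, 0 members and 255 genes in all, and the members called were 6, 2, 6, 4, 6 and 2 in the MI TGFβ, MII TGFβ, MII Ctrl against MI Ctrl, MII TGFβ against MI TGFβ, interaction and siSMAD2/3/4 comparisons, as without it.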
